A study of Homo sapiens with 6 samples.

Results

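The genes described here encode the cleavage stimulation factor (CSTF1, CSTF2, CSTF2T and CSTF3), cleavage factor II (PCF11 and CLP1), the cleavage cofactor RBBP6, the nuclear poly(A) polymerases PAPOLA and PAPOLG, and the termination exonuclease XRN2. They were picked out by gene symbol and are 10 of the 47577 loci in the expression table. All 10 were matched to 1 locus each, and all 10 passed the minimum for testing, a normalised read count of at least 10 in at least 3 libraries.

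OVCAR3, an established human line derived from high-grade serous ovarian cancer (HGSOC), was profiled by RNA-seq of poly(A) RNA after 6 h with DMSO, the solvent control (n = 3), or with 200 nM THZ531, which binds and inhibits the transcriptional kinases CDK12 and CDK13 (n = 3). The series calls the 3 libraries of each condition biological repeats, and all 6 come from the same cell line. The titles and the treatment field of the samples name THZ531, whereas the protocol field names THZ1 at the same dose and time. The comparison asks how inhibition of these kinases alters the mRNAs of the RNA 3′-end machinery.

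The 3′ end of most mRNAs is made by cutting the nascent RNA downstream of an AAUAAA signal and adding a poly(A) tail. CPSF binds the signal and cuts, CSTF binds the GU-rich element beyond the cut, cleavage factor II links the reaction to RNA polymerase II, and a poly(A) polymerase adds the tail. XRN2 then degrades the RNA still attached to the polymerase, a step tied to transcription termination. CDK12 and CDK13 phosphorylate the C-terminal domain of the polymerase, on which several of these factors assemble.

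The libraries held 53054048 to 70986130 reads on genes, and no member had fewer than 601 reads in any library. All 7 epithelial markers (PAX8, WT1, MUC16, EPCAM, KRT7, KRT8 and KRT18) were detected, with a summed normalised count of 430964 to 441494 in DMSO and 548373 to 560933 in THZ531. KRT7, KRT8 and KRT18 made up most of this sum, while PAX8 fell 9.08-fold (log2 fold change -3.18, SE 0.06) and MUC16 was at -0.46, not called. The summed leukocyte markers (PTPRC, CD3E and CD14) were at 135 to 172 in all libraries, and CD3E was at 0. The endothelial markers PECAM1 and VWF summed to 131 to 228, and the fibroblast markers COL1A1 and DCN to 946 to 1035 in DMSO and 2057 to 2338 in THZ531. The fibroblast sum was almost all COL1A1, which was called upward (log2 fold change 1.14). DCN had at most 4 reads in a DMSO library and 0 in THZ531, and was not tested. VWF was called upward (0.73), and PECAM1 was not called (-0.16).

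Expression of the 10 genes went in both directions (plot of normalised counts by library). Regulation was called where limma on log2(count + 1) values gave a change of 1.5-fold or more with an unadjusted p no higher than 0.05, and p-values adjusted by the Benjamini-Hochberg method over all 17568 loci tested are given. By this rule 6 of the 10 members were regulated, where 39.5% of all tested loci were. CLP1, PAPOLG and XRN2 rose (3 of 10, against 15.7% of all loci) and CSTF2T, CSTF3 and RBBP6 fell (3 of 10, against 23.9%). The adjusted p was at most 0.05 for 9 members, against 68.6% of loci, and the DMSO and THZ531 libraries did not overlap for 9 members, against 71.7%. The median log2 fold change of the members was -0.12, beside -0.01 for all loci. These shares are of the order found across all loci, and the values below describe the single genes. The libraries are of bulk RNA, so the share of cells that hold a transcript cannot be told apart from its level per cell. The values are relative, so a change in the RNA per cell cannot be told apart from a change in that level.

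**Figure D1:**
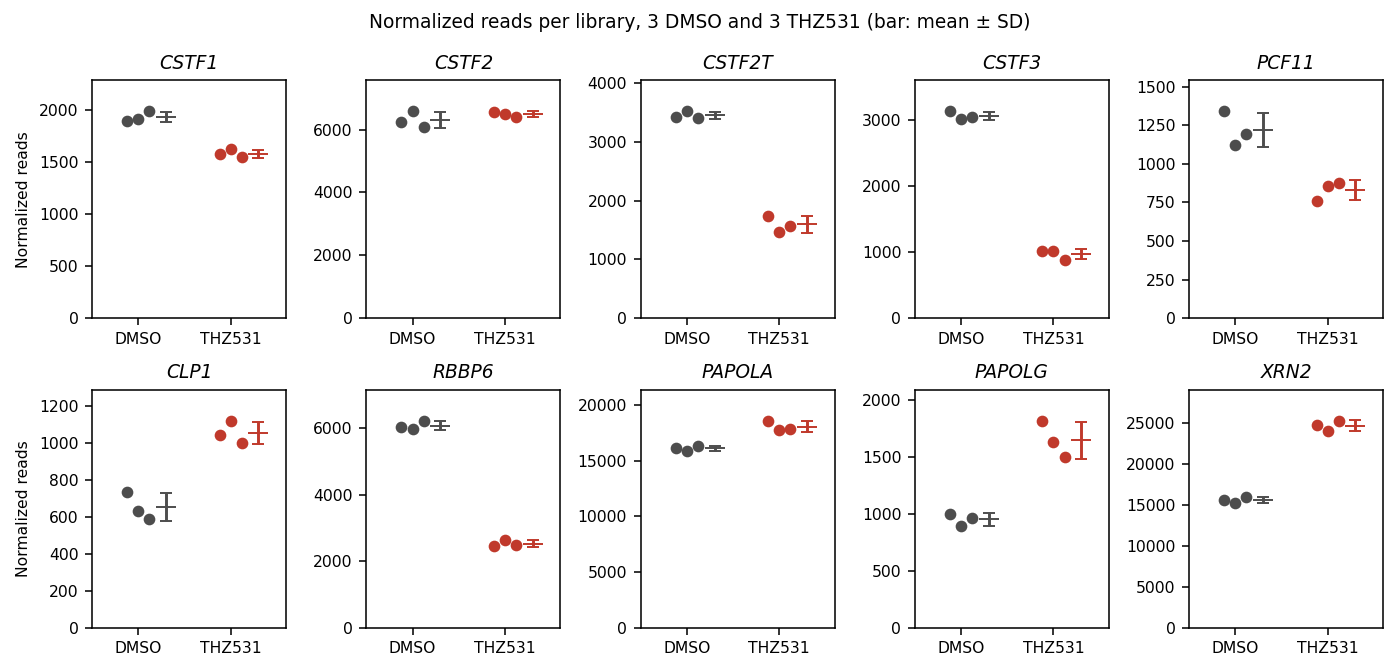
Normalised read counts of the 10 genes in each DMSO (grey) and THZ531 (red) library, on a linear axis from 0, with points for single libraries and bars for mean ± SD (n = 3). CSTF2T, CSTF3 and RBBP6 were lower and CLP1, PAPOLG and XRN2 higher in all 3 THZ531 libraries on the deposited scale, and CSTF2 is the gene whose groups overlap.

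CSTF3, the CstF-77 scaffold that holds the CSTF subunits together, had the largest change of the members. Its normalised counts were 3126, 3010.1 and 3043 in DMSO and 1021, 1012 and 878 in THZ531. The groups did not overlap, and the mean fell 3.15-fold, from 3060 ± 59.5 to 970 ± 80.0 (SD, n = 3). The log2 fold change was -1.66 (SE 0.06, limma adjusted p = 3.7e-12), and 6.47% of tested loci were at or below this value.

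The CSTF3 locus (hg38, chr11:33084584-33161491, minus strand) spans 76.9 kb. Intron 3, of 33248 nt, is the longest of its 20 introns. The study designed PCR primers on either side of the start of this intron, and they are shown because they mark where it examined the transcript. The paper counts CSTF3 among the THZ531-regulated changes in the choice of last exon. It reports that direct testing of this event bore out its bioinformatic analysis. They were matched to the genome: the forward primer lies in exon 3 (chr11:33141714-33141733), one reverse primer 232 to 254 nt into intron 3 (chr11:33141413-33141435) and the other in exon 5 (chr11:33107916-33107937). The final line shows the AATAAA nearest to the start of the intron, in capitals with 20 bases on each side (chr11:33140909-33140954, minus strand).
CSTF3 ex3 Fw: TTATGAACGCCTTGTTGCCC
CSTF3 int3 Rv: AAGGCTAAAGCACTCCAATACCA
CSTF3 ex5 Rv: GTTTACCCTTGGTTTCTCGGAC
CSTF3 intron 3: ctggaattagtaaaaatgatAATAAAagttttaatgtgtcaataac
This AATAAA follows 732 nt of intron, and the intron holds 33 such hexamers, or 0.99 per kb. A match in sequence is not evidence of use, and the expression table gives 1 value for the whole locus, so that reads of the intron were not analysed here.

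CSTF1, the CstF-50 subunit, was lower in THZ531 without reaching the fold threshold. Its counts were between 1895 and 1991 in DMSO and between 1547 and 1624 in THZ531, with no overlap, and the log2 fold change was -0.29 (SE 0.05, limma adjusted p = 0.00017).

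CSTF2 and CSTF2T encode the CstF-64 subunit, which contacts the RNA downstream of the cut, and its paralog tau CstF-64. CSTF2 was at 6242, 6579.8 and 6093 in DMSO and at 6569, 6496 and 6391 in THZ531. The groups overlapped, and no change was detected (log2 fold change 0.04, SE 0.04, 95% interval -0.04 to 0.13, limma adjusted p = 0.38). The interval lies within the fold threshold of 1.5, which is 0.58 on the log2 scale. CSTF2T was at 3423, 3519.5 and 3409 in DMSO and at 1746, 1473 and 1564 in THZ531. Every THZ531 library was below every DMSO library, and the mean fell 2.16-fold (log2 fold change -1.12, SE 0.06, limma adjusted p = 1.4e-10).

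The CSTF2T locus (chr10:51695486-51699595, minus strand) is a single exon of 4.11 kb with no intron, and the CSTF2 locus (chrX:100820391-100841520, plus strand) has 14 exons over 21.1 kb. The coding sequences of the paralogs are identical at 79.3% of aligned positions. The longest run of bases shared by their mRNAs is 41, so that no longer stretch matches both genes exactly.

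Cleavage factor II also had subunits with opposite signs. PCF11, which binds the C-terminal domain of the polymerase, was at 1341, 1125 and 1191 in DMSO and at 757, 854 and 878 in THZ531. The groups did not overlap, but the fold of 1.47 stayed just under the threshold (log2 fold change -0.55, SE 0.08, limma adjusted p = 1.5e-05). PCF11 passed it without DMSO replicate 2 (-0.61) or without THZ531 replicate 3 (-0.60). CLP1, an RNA kinase that also acts in tRNA splicing, was at 734, 634 and 586 in DMSO and at 1043, 1121 and 1001 in THZ531. It was higher in all 3 THZ531 libraries, and the mean rose 1.62-fold (log2 fold change 0.70, SE 0.09, limma adjusted p = 2.6e-06) on the deposited scale.

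RBBP6, a RING-domain protein that activates the cleavage reaction and also binds p53 and RB1, was at 6039, 5978 and 6232 in DMSO and at 2447, 2649 and 2497 in THZ531. The lowest DMSO library was above the highest THZ531 library by more than the range within either group. The mean fell 2.403-fold, from 6083 ± 132 to 2531 ± 105 (SD, n = 3), with a log2 fold change of -1.27 (SE 0.05, limma adjusted p = 1.7e-12).

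PAPOLA, the canonical nuclear poly(A) polymerase, was at 15901 to 16334 in DMSO and 17763 to 18590 in THZ531. The groups did not overlap, the log2 fold change was 0.16 (SE 0.03, limma adjusted p = 0.00045), and the gene was not called. PAPOLG, a nuclear poly(A) polymerase of the same family, was at 993, 889 and 965 in DMSO and at 1815, 1624 and 1493 in THZ531. It rose 1.73-fold on the deposited scale (log2 fold change 0.79, SE 0.08, limma adjusted p = 1.2e-07), the largest rise of the 10 genes, and its THZ531 libraries were more spread than those of DMSO (SD 162 against 54.0). The coding sequences of PAPOLA and PAPOLG are 70.8% identical, with at most 20 shared bases in a row.

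XRN2, the nuclear 5′ to 3′ exonuclease of termination, was the most abundant of the 10 transcripts per length. Its counts were 15572, 15233 and 16018 in DMSO and 24798, 24075 and 25334 in THZ531. The THZ531 libraries were all above those of DMSO, and the mean rose 1.58-fold on the deposited scale (log2 fold change 0.66, SE 0.03, limma adjusted p = 1.1e-10).

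The rises depended on how the libraries were scaled (plot of fold changes by scaling). The deposited values were divided by DESeq2 size factors. Setting every library to the same total moved all THZ531 against DMSO differences by -0.24 on the log2 scale, and setting RPL34, the ribosomal protein transcript to which the study related its qPCR, to the same level moved them by -0.49. CLP1 then had log2 fold changes of 0.46 and 0.21, PAPOLG of 0.55 and 0.30, and XRN2 of 0.42 and 0.17, so that no member was called upward under either scaling. PAPOLA (-0.08 and -0.33) and CSTF2 (-0.20 and -0.45) turned negative. CSTF2T (-1.36 and -1.61), CSTF3 (-1.90 and -2.15) and RBBP6 (-1.51 and -1.76) stayed called downward. PCF11 was called downward under both (-0.80 and -1.05), and CSTF1 with RPL34 (-0.78). The median of all tested loci was -0.25 and -0.50 under these scalings. Of all 17568 tested loci, 1647 were called upward and 5615 downward under equal totals, and 1078 and 7524 under RPL34. No spike-in is described, so the data do not choose between these scalings.

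**Figure D2:**
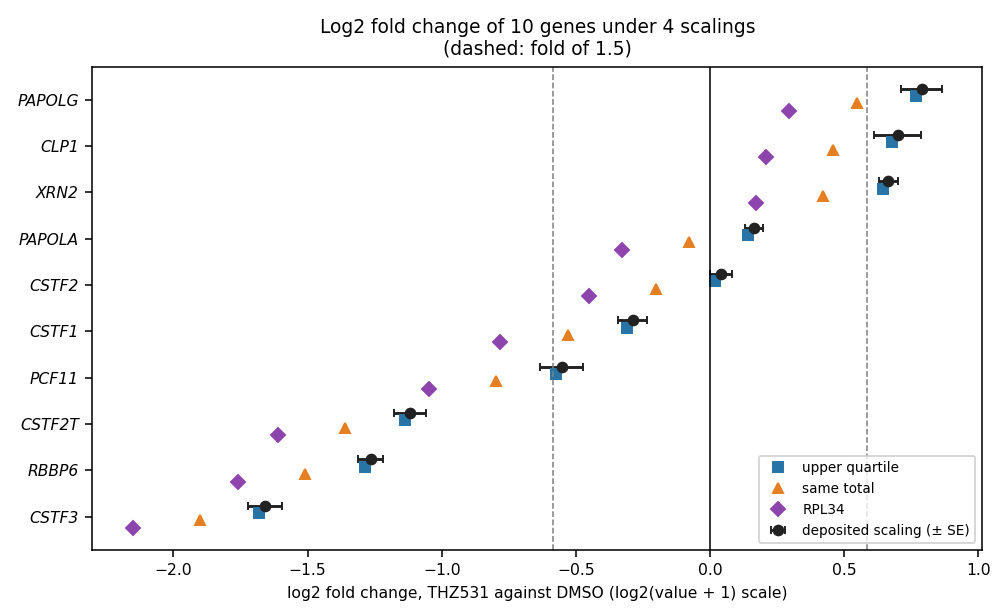
Log2 fold change (THZ531 against DMSO) of each gene on the deposited scale and under 3 other scalings of the libraries, with bars for the SE of the limma fit on the deposited scale (n = 3 per group) and dashed lines at the 1.5-fold threshold. The falls of CSTF3, RBBP6 and CSTF2T passed the threshold under every scaling shown, whereas the rises of CLP1, PAPOLG and XRN2 lost it under equal totals and under RPL34, and CSTF2 and PAPOLA changed sign there.

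Ratios of members within a library do not move with the scaling, and 4 were compared (plot of ratios). CSTF2 to CSTF2T was 1.82, 1.87 and 1.79 in DMSO and 3.76, 4.41 and 4.09 in THZ531, a log2 difference of 1.16. PCF11 to CLP1 went from 1.88 ± 0.14 to 0.79 ± 0.08 (SD, n = 3, log2 difference -1.25), crossing 1 in counts not corrected for length. Per kb of merged exons CLP1 was above PCF11 in both groups, at 298 against 122 in DMSO and 482 against 83.4 in THZ531. CSTF3 to CSTF1 went from 1.58 ± 0.06 to 0.61 ± 0.04 (log2 difference -1.37) and also crossed 1. Per kb CSTF3 was above CSTF1 in DMSO (678 against 403) and below it in THZ531 (215 against 330). PAPOLA to PAPOLG went from 17.0 ± 0.83 to 11.04 ± 0.85 (log2 difference -0.63). None of the 4 ratios overlapped between the groups. The two-sided exact permutation p was 0.1 for each, and 0.1 after adjustment over the 4, which is the smallest p that 3 libraries against 3 can give.

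**Figure D3:**
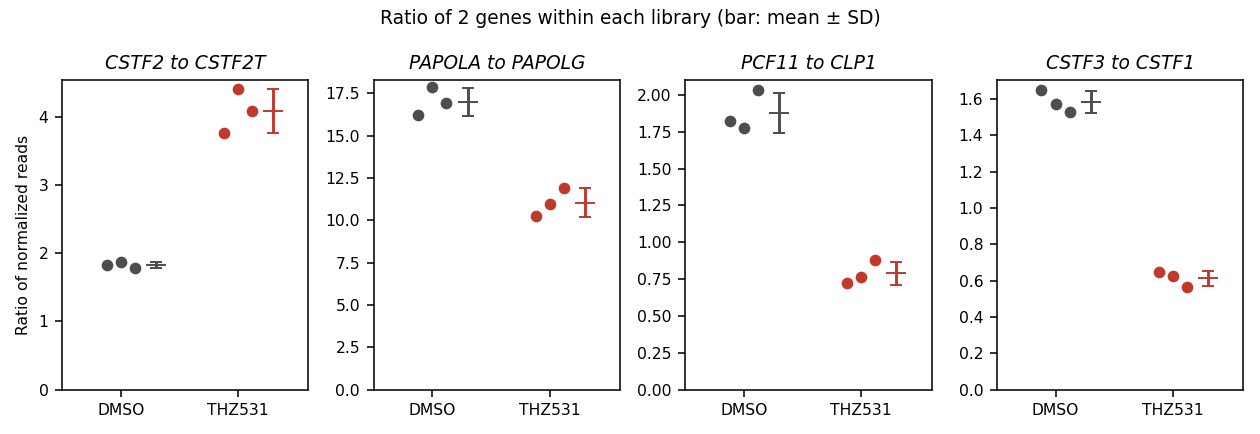
Ratio of normalised counts of 2 members within each library, on a linear axis from 0, with points for libraries and bars for mean ± SD (n = 3 per group). CSTF2 to CSTF2T was higher in the 3 THZ531 libraries, and the other 3 ratios were lower, with PCF11 to CLP1 and CSTF3 to CSTF1 crossing 1. The counts are not corrected for length, and per kb CLP1 was above PCF11 in both groups.

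Levels of different genes were compared as normalised reads per kb of merged exons. In DMSO the order was XRN2 (4580 ± 115, SD, n = 3), CSTF2 (2299 ± 90.9), PAPOLA (1184), CSTF2T (840), CSTF3 (678), RBBP6 (581), CSTF1 (403), CLP1 (298), PCF11 (122) and PAPOLG (112). Neighbours in this order did not overlap between libraries except PCF11 (113 to 135) and PAPOLG (105 to 117). In THZ531 the top 3 were the same, CLP1 (482) came next, CSTF3 (215) was eighth and PCF11 (83.4) last. CSTF2T made up 26.8% ± 0.44 of the summed CSTF2 and CSTF2T level per kb in DMSO and 14.1% ± 0.96 in THZ531 (SD, n = 3), and PAPOLG 8.63% ± 0.38 and 12.7% ± 0.85 of that of PAPOLA and PAPOLG. With the length of the MANE transcript in place of merged exons, PAPOLA (3570) stood above CSTF2 (2453) in DMSO and the PAPOLG share was 3.49% and 5.29%.

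The rest of the 3′-end machinery was read in the same fit (plot of the gene lists). Of 10 CPSF and cleavage factor I genes, 4 fell (against 23.9% of all tested loci) and none rose (against 15.7%). CPSF4 (log2 fold change -1.26), a zinc-finger subunit that binds the AAUAAA signal, CPSF2 (-1.03), a subunit of the cleavage core, CPSF7 (-0.65), of cleavage factor I, and CPSF3 (-0.60), the endonuclease, were past both thresholds. CPSF3 was close to the fold threshold, and its call was lost without THZ531 replicate 1 (-0.53). The highest of the list was CPSF6, the partner of NUDT21 in cleavage factor I, with 0.55, which was not called. The median of the list was -0.16, beside -0.12 for the members.

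Among 15 other genes of poly(A) and U tailing or poly(A) binding, 14 were tested, 5 rose (against 15.7% of all loci) and 1 fell (against 23.9%) on the deposited scale, with a median of 0.54. The median was 0.30 under equal totals and 0.05 under RPL34. PAPOLB, the testis poly(A) polymerase, was at 0 in DMSO and was not tested. TENT5C (2.06), TENT5A (1.14) and TENT5B (0.92), all cytoplasmic nucleotidyltransferases, rose with MTPAP (0.77), the mitochondrial poly(A) polymerase, and TUT4 (0.76), a terminal uridylyltransferase. TUT7 (-0.87), the paralog of TUT4, fell. With the same total 3 genes of this list were called upward and 1 downward, and with RPL34 2 upward and 3 downward. Of all 17568 loci, 1647 were called upward and 5615 downward with the same total, and 1078 and 7524 with RPL34. TENT4A (0.57) and TENT4B (0.53), noncanonical nuclear poly(A) polymerases, were just under the fold threshold, which both passed without DMSO replicate 3 (0.60 and 0.60) or THZ531 replicate 3 (0.60 and 0.59) and TENT4A also without THZ531 replicate 1 (0.60).

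Of 14 other termination genes, 5 rose (against 15.7% of all loci) and 3 fell (against 23.9%) on the deposited scale. The median was 0.12, and it turned negative under equal totals (-0.12) and RPL34 (-0.37). PPP1R10 (-2.98), the PNUTS subunit of protein phosphatase 1, had the largest fall, followed by RECQL5 (-1.77), a helicase that binds the polymerase, and SSU72 (-0.97), a phosphatase of its C-terminal domain. RPRD2 (1.25), SCAF8 (0.86), PHF3 (0.86) and RPRD1B (0.78), which bind the polymerase or its C-terminal domain, and XRN1 (1.17), the cytoplasmic relative of XRN2, rose. With the same total 4 genes of the list were called upward and 3 downward, and with RPL34 2 upward and 4 downward. The counts over all 17568 loci were 1647 upward and 5615 downward with the same total, and 1078 and 7524 with RPL34. The limma adjusted p was at most 0.05 for 10 of 10, 13 of 14 and 11 of 14 genes of these 3 lists, beside 68.6% of all tested loci.

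**Figure D4:**
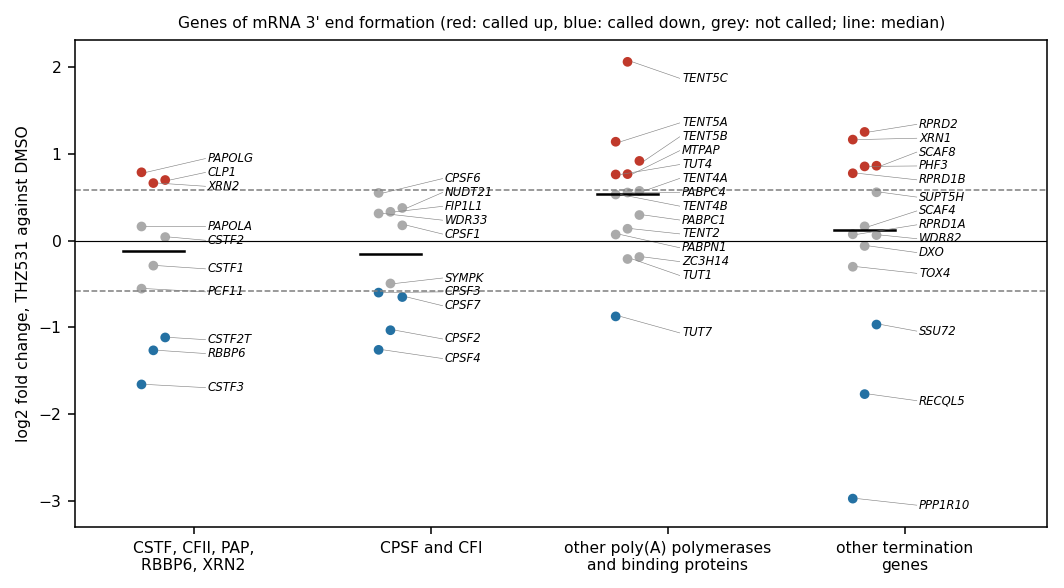
Log2 fold change (THZ531 against DMSO, deposited scale) of the members and of 3 other lists of 3′-end genes, with 1 point per gene (red called up, blue called down, grey not called), a line at each list's median and dashed lines at the 1.5-fold threshold. The medians were -0.12, -0.16, 0.54 and 0.12, and under equal totals and RPL34 the last fell below 0 and some of the genes above the upper line lost their call.

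The table holds 15 other loci that overlap a member or lie within 5 kb of one (plot of neighbouring loci). Of these, 9 were tested, 3 were called higher (against 15.7% of all tested loci) and 1 lower (against 23.9%). Among the 3 is GSHG0045938, described next, which passed the minimum of 10 only through its THZ531 libraries, so that its call is not read as a result. An unnamed locus, GSHG0045938 (chrX:100833904-100834592, 689 bases, strand not given), lies inside CSTF2. It starts 432 nt into intron 11 of CSTF2 and touches no exon of the reference transcript. Its normalised counts were 0, 6.50 and 11.97 in DMSO and 27.7, 54.6 and 59.2 in THZ531, from 0, 7 and 15 reads and from 22, 48 and 52 reads. The groups did not overlap, while CSTF2 itself did. A minimum passed in this way favours loci that are higher in THZ531, so its values are given as a description with no p. The log2 fold change was 3.32 (SE 0.75), and at these low counts it moved to 1.85 with a pseudocount of 10, to 4.49 with a pseudocount of 0.1 and to 2.22 without DMSO replicate 1, the library with 0 reads. Intron 11 is the longest of CSTF2, with 3866 nt. On the strand of CSTF2 the locus holds 1 AATAAA, 20 bases before its end, which is shown in capitals because the locus ends behind it (chrX:100834547-100834592, plus strand).
CSTF2 intron 11: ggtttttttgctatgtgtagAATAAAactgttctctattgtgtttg
The other strand of the locus holds 3 further AATAAA, so that the position of the motif does not give the strand of the transcript.

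PAPOLA-DT is transcribed away from PAPOLA, on the opposite strand. It was at 46.0, 57.5 and 81.4 in DMSO and at 155, 188 and 167 in THZ531. All THZ531 libraries were above those of DMSO, and the log2 fold change was 1.48 (SE 0.22, limma adjusted p = 2.1e-05), which stayed called with RPL34 scaling (0.99). PAPOLA itself was at 0.16 and -0.33 on these scales. The region between the starts of the pair is shown with the 49 bases between the 2 loci in capitals (GRCh38.p14, chr14:96502126-96502425, plus strand, from RefSeq).
PAPOLA promoter: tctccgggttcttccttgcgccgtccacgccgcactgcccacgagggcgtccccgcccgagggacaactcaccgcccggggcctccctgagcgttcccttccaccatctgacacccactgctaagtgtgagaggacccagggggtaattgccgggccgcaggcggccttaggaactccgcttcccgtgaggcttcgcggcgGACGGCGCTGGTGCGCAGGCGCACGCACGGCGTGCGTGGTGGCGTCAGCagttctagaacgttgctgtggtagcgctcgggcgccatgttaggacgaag

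AURKA, the mitotic kinase Aurora A, lies in the same arrangement upstream of CSTF1. Its counts were 4585, 4757 and 5076 in DMSO and 7241, 7271 and 7101 in THZ531, a log2 fold change of 0.59 (SE 0.04, limma adjusted p = 6.2e-09), opposite in sign to the -0.29 of CSTF1. The value is at the fold threshold. It was 0.34 under scaling to equal totals and 0.09 under RPL34, and it missed the threshold without DMSO replicate 1 (0.55) or 2 (0.58) and without THZ531 replicate 1 or 2 (0.58 each). On recovered reads it was 0.56 in edgeR and 0.58 in DESeq2, neither of them called. The window of CSTF1 is shown with the 150 bases between the loci in capitals (chr20:56392129-56392428, plus strand).
CSTF1 promoter: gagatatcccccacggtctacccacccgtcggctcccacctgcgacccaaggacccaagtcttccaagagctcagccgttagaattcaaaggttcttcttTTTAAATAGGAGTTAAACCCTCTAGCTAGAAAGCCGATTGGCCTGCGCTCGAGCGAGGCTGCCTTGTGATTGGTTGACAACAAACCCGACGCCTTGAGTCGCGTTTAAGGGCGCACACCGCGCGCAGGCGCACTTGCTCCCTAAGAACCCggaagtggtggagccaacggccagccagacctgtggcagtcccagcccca

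PCF11-AS1, an antisense RNA over the 3′ end of PCF11, was at 50.02, 79.8 and 59.0 in DMSO and at 11.3, 19.3 and 11.4 in THZ531. It fell by 2.11 on the log2 scale (SE 0.36, limma adjusted p = 8.3e-05). The libraries were made with a stranded kit, but the strand setting of the counting is not given in the sources used here, so that reads of PCF11 and PCF11-AS1 may not be fully separated. The same holds for TCP11L1 (-0.49, not called), which overlaps CSTF3 on the opposite strand. TNRC6A (0.05, not called) spans the whole of RBBP6 on the same strand, so that strand would not separate reads of these loci. LOC100506282 (-0.50), which overlaps PCF11, was called only without DMSO replicate 2 (-0.65) among the sets of 5 libraries. The 6 loci that were not tested reached at most 11.97 in any library.

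**Figure D5:**
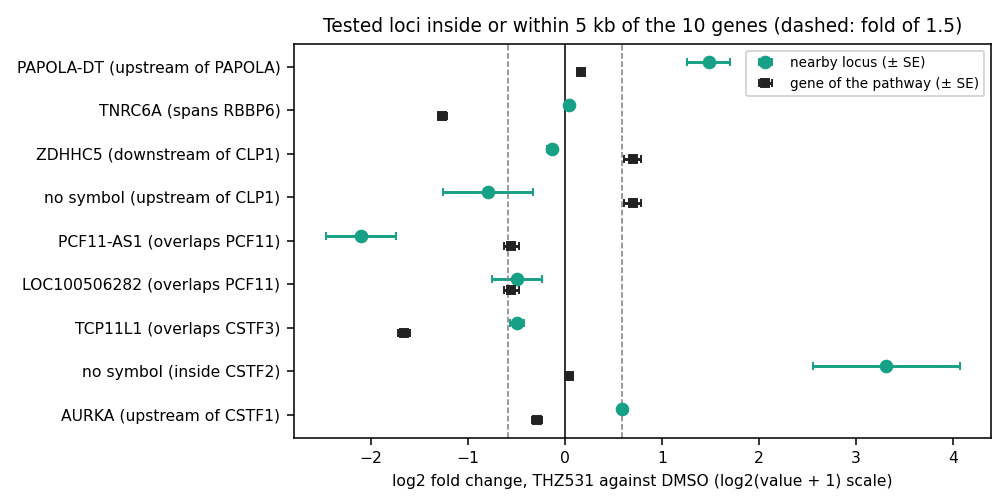
Log2 fold change (THZ531 against DMSO, log2(value + 1), deposited scale) of the 9 tested loci in or within 5 kb of a member (circles) beside that of the member (squares), with bars for the SE of the limma fit (n = 3 per group) and dashed lines at the 1.5-fold threshold. The unnamed locus inside CSTF2 (3.32) and PAPOLA-DT (1.48) lie far to the right of their members, PCF11-AS1 (-2.11) lies to the left of PCF11, and AURKA (0.59), at the threshold, was not called under equal totals or RPL34. The unnamed locus passed the minimum for testing only through its THZ531 libraries and is shown as a description.

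The members differ in structure as well as in direction. The 3 genes that fell span 4.11 kb (CSTF2T), 35.2 kb (RBBP6) and 76.9 kb (CSTF3), and the 3 that rose on the deposited scale span 4.71 kb (CLP1), 45.8 kb (PAPOLG) and 86.5 kb (XRN2), so that neither direction was confined to short or long genes among the members. XRN2 rose with a first intron of 22805 nt, and CLP1 has 3 exons and no intron above 1594 nt. Across all tested loci with a symbol, 20.7% of the 3693 under 10 kb, 24.7% of the 6478 from 10 to 50 kb and 24.6% of the 5107 of 50 kb or more fell, and 17.0%, 11.2% and 13.5% rose.

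Promoter windows from 250 bases before to 50 bases after the RefSeq start were found for all 10 members and were searched on both strands for short motifs, chosen after the windows were seen. The cAMP response element TGACGTCA was in 3 of 10 windows, beside 1.98% of 27305 windows of all genes. The GC box GGGCGG was in 7 of 10 (44.6% of all windows), CCAAT in 4 (35.7%), the ETS core CCGGAAG in 3 (10.7%), the E-box CACGTG in 2 (7.43%), and TATAAA (11.95%) in none. These motifs do not contain each other. For a member, the window with the start site nearest to its locus start was used. For all genes, the first listed window of each gene was used. The windows of CSTF3, RBBP6 and XRN2, which hold TGACGTCA, were 61.3%, 68.7% and 72.0% GC, beside a median of 58.3% in all windows. Other member windows were 51.3% (CSTF2T) to 68.0% (PAPOLA) GC. The shares were not matched for GC. The 3 windows with TGACGTCA are shown, with this motif in capitals, because they belong to genes that moved in opposite directions: CSTF3 (chr11:33161431-33161730, minus strand) and RBBP6 (chr16:24539316-24539615, plus strand) fell, and XRN2 (chr20:21303081-21303380, plus strand) rose on the deposited scale.
CSTF3 promoter: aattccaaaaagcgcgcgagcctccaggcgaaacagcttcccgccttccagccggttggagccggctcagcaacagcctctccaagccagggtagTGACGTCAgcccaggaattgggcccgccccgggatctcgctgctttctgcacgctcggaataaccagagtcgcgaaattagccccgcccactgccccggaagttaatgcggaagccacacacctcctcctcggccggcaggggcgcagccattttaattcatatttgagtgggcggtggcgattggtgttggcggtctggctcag
RBBP6 promoter: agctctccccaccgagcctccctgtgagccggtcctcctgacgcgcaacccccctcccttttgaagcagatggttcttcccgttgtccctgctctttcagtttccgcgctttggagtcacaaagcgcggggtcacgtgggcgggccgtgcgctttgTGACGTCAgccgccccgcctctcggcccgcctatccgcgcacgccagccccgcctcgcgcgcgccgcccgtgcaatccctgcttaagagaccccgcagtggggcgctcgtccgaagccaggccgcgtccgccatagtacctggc
XRN2 promoter: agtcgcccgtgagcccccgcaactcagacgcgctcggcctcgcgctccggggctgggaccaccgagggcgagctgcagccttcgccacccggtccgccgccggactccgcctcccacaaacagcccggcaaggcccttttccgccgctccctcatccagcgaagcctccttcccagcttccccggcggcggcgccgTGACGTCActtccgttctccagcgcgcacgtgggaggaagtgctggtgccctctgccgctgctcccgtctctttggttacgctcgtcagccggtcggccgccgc
The RefSeq start site of the RBBP6 window lies 1873 bases from the start of the locus in the expression table, and that of the CLP1 window 604 bases. The match is a description of the sequence, and binding of a factor was not measured.

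Among 11829 loci with a symbol and a mean count of at least 100, the profile over the 6 libraries nearest to that of CSTF3 belonged to MRPL20-AS1, at a distance of 0.07 on the log2 scale, followed by GVQW3 (0.11) and GPR157 (0.12). Their log2 fold changes were -1.63, -1.71 and -1.68. Nearest to PAPOLG were GINS3 (0.12), PER1 (0.13) and RCOR2 (0.13), with log2 fold changes of 0.76, 0.82 and 0.84. The distance is Euclidean over values centred on the DMSO mean and was not tested. It grows with a difference in fold change, so the similar fold changes follow from how these loci were picked.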

How the data were processed

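RNA was extracted from OVCAR3 cells with DNase treatment, and poly(A) libraries were made with a stranded kit. Per the labels and the study's methods, the authors aligned reads to hg38 with STAR, counted reads per FAST DB locus and normalized them with DESeq2. The STAR version is 2.7.5a in the submitters' processing notes, and the paper's methods name a different version. The deposited values are a signal per locus, counts divided by size factors. All values were whole multiples of 1 step per library (100% within 0.01), so reads were recovered.

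The 17568 of 47577 loci that reached 10 in 3 or more of the 6 libraries were tested on log2(value + 1), where the pseudocount understates changes of low loci, with limma 3.58.1 with trended variance in R 4.3.3. The 1.5-fold and p 0.05 thresholds follow the study. Ratios were tested by exact permutation (scipy 1.17.1). Alternatives were edgeR 4.0.16 and DESeq2 1.42.0 on recovered reads, other pseudocounts, minimums, scalings and folds, a replicate block, and leaving out each library. The code was tested on simulated data. Structures and genomic sequence came from GENCODE 44 and GRCh38, promoters from RefSeq.

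Named were all members, every listed gene or neighbouring locus past both thresholds, the lowest and highest gene of each list, and the 3 nearest profiles of the members with the largest rise and fall. One gene of the termination list is not reported here. Members and lists were chosen with earlier results of these data known. The limma p-values weigh the difference between the groups against the spread between libraries, which the series calls biological repeats. The permutation p of the ratios comes from exchanging the group labels of the libraries.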

Additional observations from a re-analysis of the deposited data

How the results depend on the processing

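Of the member, list and neighbour counts, the upward members went from 3 to 0 with the same total, with RPL34 and at a fold of 2, and the downward members from 3 to 5 with RPL34. Beside them, 1647 of all 17568 loci were called upward and 5615 downward with the same total, and 1078 and 7524 with RPL34. At a fold of 2 the CPSF and cleavage factor I genes called went from 4 to 2, the poly(A) genes from 6 to 2 and the termination genes from 8 to 4. With RPL34 the neighbouring loci called, GSHG0045938 among them, went from 4 to 7 of the 9 tested, where 8602 of 17568 loci were called. The changes at a fold of 2 follow from the stricter threshold, and those under the 2 scalings from the shift of all values. Leaving out 1 library gave 3 upward and 3 to 4 downward members, 3 to 4 CPSF and cleavage factor I genes, 6 to 8 poly(A) genes, 8 termination genes and 3 to 4 neighbouring loci. The log2 differences of the ratios were then 1.10 to 1.22 for CSTF2 to CSTF2T, -0.68 to -0.57 for PAPOLA to PAPOLG, -1.33 to -1.19 for PCF11 to CLP1 and -1.41 to -1.32 for CSTF3 to CSTF1. No called gene and no ratio changed sign under the alternatives run, but small positive log2 fold changes that were not called turned negative under the scalings. Under equal totals these were CSTF2 (-0.20), PAPOLA (-0.079), TNRC6A (-0.20), CPSF1 (-0.066), TENT2 (-0.11), PABPN1 (-0.17), SCAF4 (-0.078), RPRD1A (-0.17) and WDR82 (-0.18). Under RPL34 they were CSTF2 (-0.45), PAPOLA (-0.33), TNRC6A (-0.45), CPSF1 (-0.32), FIP1L1 (-0.16), WDR33 (-0.18), NUDT21 (-0.12), TENT2 (-0.36), PABPN1 (-0.42), PABPC1 (-0.20), SCAF4 (-0.33), RPRD1A (-0.42) and WDR82 (-0.43). The replicate numbers of the 2 conditions did not pair the libraries (correlations of deviations 0.0017, 0.019 and -0.039), and with a replicate block 3 members were called upward and 3 downward. For the 4 ratios a block cannot alter the log2 difference, which is the same by calculation, so it was no check on them. Limits are the 3 libraries per condition, 1 cell line, 1 dose and 1 time, relative values without a spike-in, and 1 value per locus, which gives neither isoforms nor introns. For loci with few reads, as GSHG0045938, the size of the change depends on the pseudocount.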
